A study of Mus musculus with 8 samples.

Results

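The clustered protocadherins are a family of cell-surface adhesion genes that lie side by side on mouse chromosome 18. Their 57 members were taken from the 54752 genes of the count tables as the protein-coding genes with a Pcdha, Pcdhac, Pcdhb, Pcdhga, Pcdhgb or Pcdhgc symbol. They comprised 14 alpha genes, 22 beta genes and 21 gamma genes, the last divided into 12 gamma A, 6 gamma B and 3 gamma C genes. A further gene, *Pcdhgb8*, is annotated as a polymorphic pseudogene and was left out.

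RNA was measured in 8 fetal brains of wild-type C57BL/6 mice (C57BL/6Slac in the study's methods) at embryonic day E15.5, 4 of the control group and 4 of the stress group. The control brains were F36 and F37 of females and M30 and M31 of males, and the stress brains were F34 and F35 of females and M28 and M29 of males. Dams of the stress group went through chronic unpredictable mild stress (CUMS), a changing schedule of mild stressors, from early gestation to the day before collection, and control dams did not. The study's sample list gives 1 litter for all 4 control brains and another for all 4 stress brains. Effects of litter and of CUMS thus cannot be told apart, and p-values measure the spread between littermates. Each library is bulk RNA of brain tissue, in which fewer cells of a type and less RNA per cell cannot be told apart.

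Clustered protocadherins are homophilic, that is, isoforms bind their own kind on the neighbouring cell. In the alpha and gamma clusters each gene has its own large first exon, which encodes the whole extracellular part and is spliced to constant exons shared by the cluster, whereas most beta genes are single exons. A neuron switches on a small, largely random set of the variable promoters, which gives it an identity used in dendrite self-avoidance. The C-type genes, *Pcdhac1*, *Pcdhac2*, *Pcdhgc3*, *Pcdhgc4* and *Pcdhgc5*, are not part of this random choice.

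The deposited values were raw counts of read pairs per gene, with totals between 25320109 and 29105710 per brain. The 57 members together held between 12195 and 14341 of these counts per brain, which is 0.0444% to 0.0504% of a library. On the mm10 assembly the alpha cluster reached from chr18:36930184-37187661, the beta cluster from chr18:37264938-37524479 and the gamma cluster from chr18:37661793-37841873, all on the plus strand.

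What a count of one member holds depends on how its exons lie. Read pairs that fitted several genes alike were not counted, so pairs lying only on bases shared between members gave no counts to any isoform. Other pairs that reach into covered bases can be counted, since *Pcdhga10*, with 0 own bases, still had counts. The bases shared between members were 2860 to 2864 in each alpha gene and a median of 2119 in the gamma genes, mainly the constant exons. They reached 3157 in *Pcdhga4*, which also shares part of its first exon. A median of 46.4% of the exon bases of an alpha gene and 54.8% of those of a gamma gene belonged to that gene alone. In the beta cluster most genes had all their exon bases to themselves, and only *Pcdhb21* and *Pcdhb22* shared bases, 455 each. In all but *Pcdha11*, *Pcdhgb1* and *Pcdhgb4* of the alpha and gamma genes, every own base lay in the first exon block of the gene.

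In 15 of the 57 members genes outside the family also covered part of the bases not shared with other members, many of them from the opposite strand, and the counting did not use strand. *Pcdhga10* kept 0 own bases, because the antisense transcript *Gm26672* covers its first exon, and had 2 to 5 counts per brain. *Pcdha4* kept 404 of 5768 exon bases and had 2 to 10 counts. *Pcdha11*, overlapped by the antisense gene *Gm10545*, kept 1268 of 7535 bases and had 2 to 8 counts. *Pcdhb1* differs from these. All of its 2588 exon bases were its own, and it still had 0 to 3 counts per brain, with 0 counts in 4 of the 8 brains, where a count of 0 allows up to 3 counts, or 0.103 to 0.109 CPM. These 4 genes did not pass the filter on low counts and have no test, which left 53 members tested. *Pcdhga10* had no own base and *Pcdha4* had few, so their values do not measure their expression. *Pcdha11* had about as many own bases as *Pcdhga11* (1256 own bases, 310 to 431 counts). Only 768 of those of *Pcdha11* lay in its first exon block, whereas all of those of *Pcdhga11* did, so the 2 are not fully alike.

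To compare levels between genes, counts scaled to library size as CPM (on totals scaled by edgeR's TMM method) were divided by the kilobases of exon that no other gene covers. The resulting level could be computed for 56 members. It is approximate, because pairs that reach into covered bases can still be counted. In the control brains 37 of them lay between 1 and 5 CPM per kb. The median level was 2.09 CPM per kb in the alpha, 1.47 in the beta and 3.77 in the gamma cluster.

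**Figure D1:**
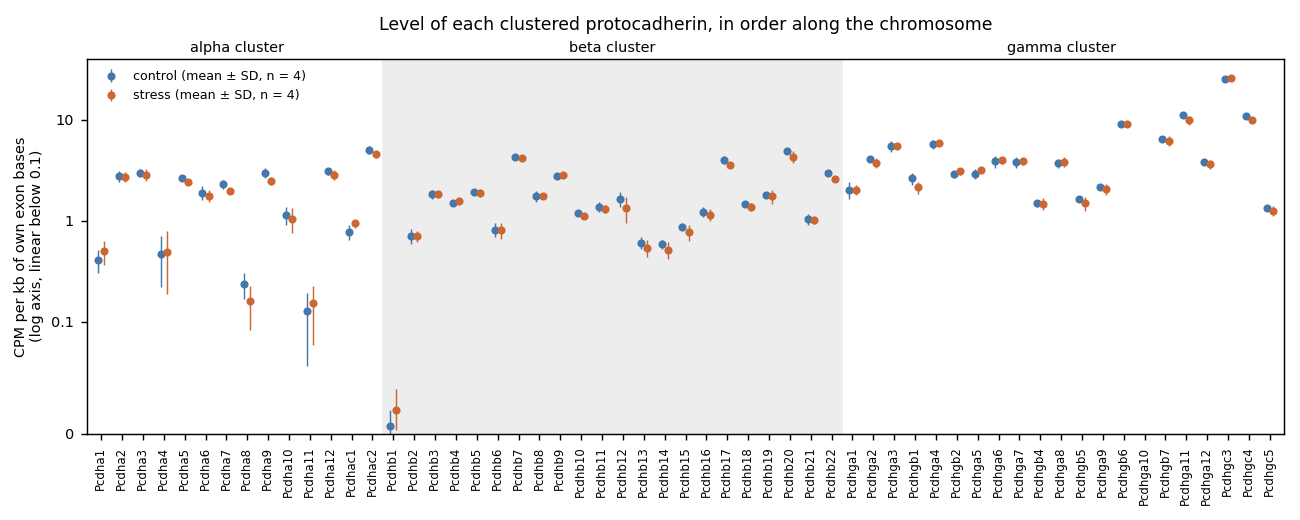
Level of each member in CPM per kilobase of own exon bases (log axis, linear below 0.1), in order along the chromosome, as mean ± SD of the 4 control and the 4 stress brains. *Pcdhgc3* is highest at 24.9 CPM per kb in control brains, *Pcdhb1* is lowest, and *Pcdhga10* has no point because it has 0 own bases.

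The 5 C-type genes did not share a level. *Pcdhgc3*, whose product is known to act on dendrite arborization and to bind Axin1, had the highest level of all members, 24.9 ± 0.589 CPM per kb in control brains (SD, n = 4), on the 1821 bases left to it beside the antisense gene *BC037039*. *Pcdhgc4*, the isoform needed for the survival of many neurons, stood at 10.8 ± 0.687 CPM per kb. *Pcdhac2*, known for its role in the axon spacing of serotonergic neurons, stood at 5.03 ± 0.446 CPM per kb. *Pcdhgc5*, whose expression is known to rise after birth, stood at 1.34 ± 0.0378 CPM per kb and *Pcdhac1* at 0.769 ± 0.128 CPM per kb. The C-type genes thus held the first and the third place in the order of levels and also places in its lower part. Of the variable isoforms, *Pcdhga11* was second at 11.2 ± 0.650 CPM per kb, which overlaps the level of *Pcdhgc4*, but this value rests on only 1256 own bases. With all exon bases as the length it dropped to 2.95 CPM per kb, and *Pcdhgc3* to 8.26, still the highest. The orders of the 56 members by own and by all exon bases had a Spearman rho of 0.878, across genes that share libraries.

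The 48 tested variable isoforms ranged from 0.234 to 11.2 CPM per kb with a median of 2.22. In the alpha cluster *Pcdhac2* had the most counts, 324 to 475 per brain. Among alpha genes that pass the filter, *Pcdha1* (19 to 45 counts) and *Pcdha8* (6 to 20 counts) were the lowest although they have 2489 and 2478 own bases. In the beta cluster *Pcdhb17* had the most counts, 451 to 557, and *Pcdhb1* the fewest. *Pcdhb20* had the highest level per kilobase of the beta genes, 4.91 ± 0.378 CPM per kb. In the gamma cluster the most counts were in *Pcdhga12* among gamma A (381 to 455), *Pcdhgb6* among gamma B (577 to 702) and *Pcdhgc3* among gamma C genes (1157 to 1381). The fewest were in *Pcdhga10*, in *Pcdhgb4* (109 to 172) and in *Pcdhgc5* (138 to 181). *Pcdhgc3* took 9.34% ± 0.372 of all member counts in control brains and *Pcdhgc4* 7.72% ± 0.308, so these neighbouring genes gave more of the family's counts than the 14 alpha genes, 13.2% ± 0.520.

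Near-identical stretches between isoforms can also lose reads. Of the own sequence cut into overlapping stretches of 100 bases, 27 of the 57 members had at least 1 stretch that also occurs in another gene. The share was at most 9.80%, in *Pcdhgb2*, followed by 9.72% in *Pcdha6* and 9.63% in *Pcdhgb1*. It was 0.173% in *Pcdhb20* and 0 in *Pcdhb22* and *Pcdhgc4*.

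The main comparison asked whether the family differed between stress and control brains. No member was higher in stress and 3 were lower, *Pcdhb20*, *Pcdhb22* and *Pcdhgc4*, by edgeR's quasi-likelihood test with sex as covariate and Benjamini-Hochberg adjustment over 17865 genes. These 3 are 5.66% of the 53 tested members. Over all genes tested, 7.27% were called lower and 6.49% higher in stress, so the share of members called lower was near that of all genes. By DESeq2, 0 members were called in either direction, beside 9.29% of all genes. At an unadjusted p under 0.05, 9 members were lower by edgeR and 7 by DESeq2, and 0 were higher by either tool. The 9 are 17.0% of the members tested. Of all genes, 13.7% were lower and 13.2% higher at that threshold by edgeR, and 10.3% and 9.65% by DESeq2. In none of the 53 members did the 4 stress brains lie all above or all below the 4 control brains, which they did for 8.20% (above) and 8.22% (below) of all genes.

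*Pcdhb20* (ENSMUSG00000046191.7, chr18:37504264-37507822), a single-exon adhesion gene near the end of the beta cluster, had 19.4 CPM in control F36, 17.3 in F37, 16.5 in M30 and 16.7 in M31. It had 17.4 CPM in stress F34, 16.7 in F35, 14.0 in M28 and 13.2 in M29. The stressed males were the lowest of all 8 brains and the stressed females lay within the range of the controls. The Log2FC was -0.19 (SE 0.06, P-adj = 0.0293). In males alone, 2 brains against 2, the Log2FC was -0.29, and in females alone it was -0.11, while the interaction of sex and stress had an unadjusted p of 0.129 in the edgeR fit over all 8 brains.

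*Pcdhb22* (ENSMUSG00000073591.4, chr18:37517871-37524479), the last gene of the beta cluster, had 19.0 CPM in control F36 and in F37, 16.4 in M30 and 17.997 in M31. It had 16.3 CPM in stress F34, 16.5 in F35, 14.6 in M28 and 16.3 in M29. Control M30 lay among the stress brains, and every other control brain lay above all stress brains. The Log2FC was -0.19 (SE 0.06, P-adj = 0.0266).

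*Pcdhgc4* (ENSMUSG00000023036.14, chr18:37815079-37841873) had 37.7 CPM in control F36, 39.6 in F37, 34.2 in M30 and 38.8 in M31. In the stress group it had 34.3 CPM in F34, 35.9 in F35, 34.6 in M28 and 32.2 in M29. Here too only control M30 lay among the stress brains. The Log2FC was -0.13 (SE 0.04, P-adj = 0.0471), which is close to the threshold.

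**Figure D2:**
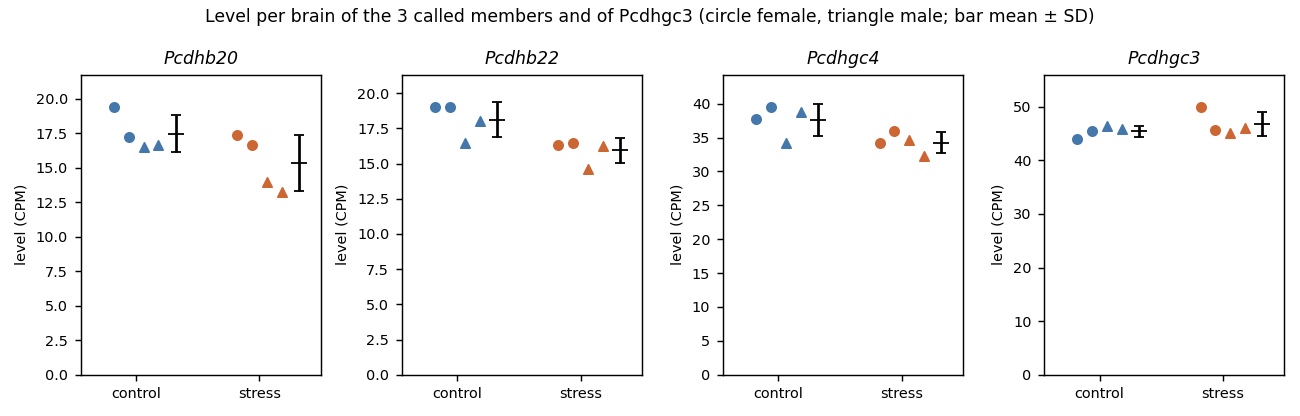
CPM per brain of *Pcdhb20*, *Pcdhb22*, *Pcdhgc4* and, for comparison, *Pcdhgc3*, with circles for females, triangles for males and a bar for mean ± SD of the 4 brains of a group. In each of the first 3 genes at least 1 control brain lies among the stress brains, and in *Pcdhgc3* the groups overlap.

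The 3 calls did not withstand most changes of the data. Each gene was called in 3 of the 8 fits that left out 1 brain, and no member was called in all 8. Of the members not called in the main fit, *Pcdhgb1* was called in 3 of these fits. *Pcdha9*, *Pcdhb17* and *Pcdhga11* were each called in 1. The number of members called lower was 1 without control F37, without control M31 or without stress M29, and was 0 without the sex covariate. The Log2FC stayed below 0 for all 3 genes in every fit that left out a brain.

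*Pcdhgc3*, the neighbour of *Pcdhgc4* that starts just upstream, had 43.9, 45.5, 46.5 and 45.8 CPM in the controls F36, F37, M30 and M31 and 50.01, 45.7, 45.1 and 46.1 CPM in the stress brains F34, F35, M28 and M29. Its groups overlapped (Log2FC 0.04, SE 0.04, P-adj = 0.579). The other C-type genes did not pass the test. *Pcdhac2* had 13.5 to 16.7 CPM in control and 12.8 to 14.6 CPM in stress brains (Log2FC -0.16, SE 0.07, P-adj = 0.140). *Pcdhac1* had 1.52 to 2.28 CPM in control and 2.21 to 2.69 CPM in stress brains (Log2FC 0.28, SE 0.14, P-adj = 0.201), the second largest positive difference of the family. *Pcdhgc5* had a Log2FC of -0.10 (SE 0.09, P-adj = 0.547).

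Among the variable isoforms the difference with the largest size, that of *Pcdha8*, belonged to a gene with few counts. *Pcdha8* had 0.363 to 0.728 CPM in control and 0.217 to 0.593 CPM in stress brains, the lowest Log2FC of the family (-0.56, SE 0.31, P-adj = 0.257). *Pcdha1* had the highest, 0.28 (SE 0.21, P-adj = 0.427). *Pcdhb12*, whose own exon is 1107 bases after overlap with the antisense gene *Gm37446*, had the lowest Log2FC of the beta genes (-0.30, SE 0.18, P-adj = 0.324) and *Pcdhb4* the highest (0.06, SE 0.09). In the gamma A group the Log2FC ran from -0.18 in *Pcdhga11* (SE 0.07, P-adj = 0.0795) to 0.14 in *Pcdhga5* (SE 0.08, P-adj = 0.312). In the gamma B group it ran from -0.29 in *Pcdhgb1* (SE 0.10, P-adj = 0.0629) to 0.11 in *Pcdhgb2* (SE 0.08, P-adj = 0.458). The most abundant isoforms of these groups, *Pcdhb17* (Log2FC -0.16, SE 0.06, P-adj = 0.0589), *Pcdhga12* (-0.06, SE 0.07) and *Pcdhgb6* (0.02, SE 0.05), did not pass the test either.

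Over the whole family, 38 of the 53 tested members had a fitted Log2FC below 0, or 71.7%, beside 49.4% of all genes tested. The median Log2FC was -0.07 over the members and 0.00 over all genes. By cluster it was -0.11 for the alpha genes (10 of 12 below 0), -0.07 for the beta genes (17 of 21) and -0.01 for the gamma genes (11 of 20). Members of a cluster are neighbours measured in the same libraries and are not independent of each other.

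**Figure D3:**
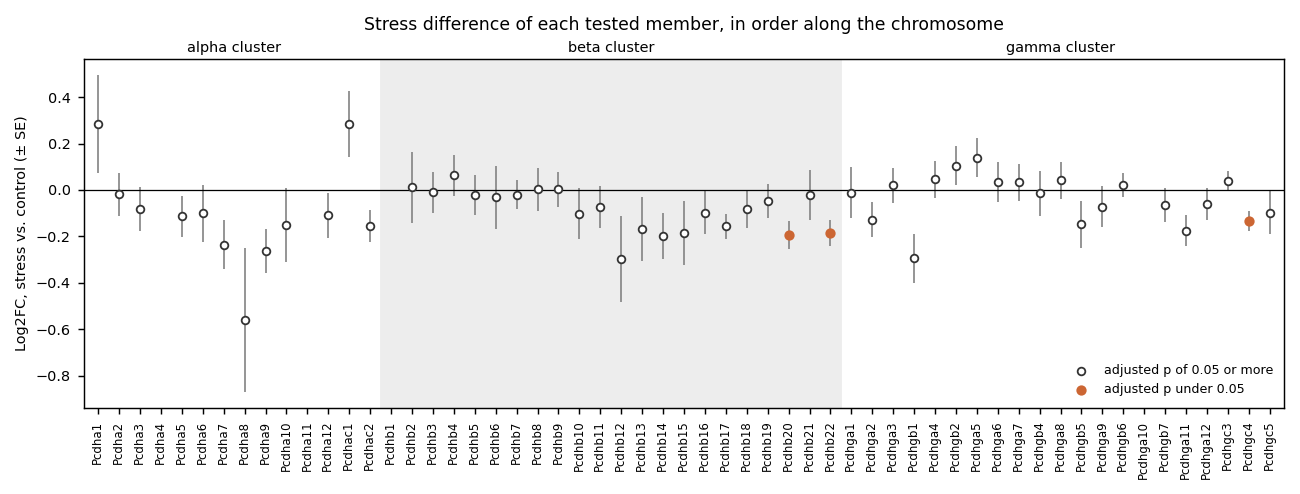
Log2FC of stress vs. control with its SE for the 53 tested members, in order along the chromosome, with filled points for the 3 members called at an adjusted p under 0.05. The 11 beta genes from *Pcdhb12* to *Pcdhb22* all lie below 0, between -0.30 and -0.02.

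Within the beta cluster the differences were not spread evenly. From *Pcdhb2* to *Pcdhb11* the median Log2FC was -0.02, with 6 of 10 genes below 0. From *Pcdhb12* to *Pcdhb22* the median was -0.17 and 11 of 11 genes lay below 0. This division was chosen after the values were seen and was not tested. The Spearman rho of Log2FC with position was -0.67 over the 21 beta genes, -0.41 over the 12 alpha genes and -0.25 over the 20 gamma genes, values that share the same 8 libraries.

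Summed per cluster, the levels of the groups overlapped. The alpha genes together had 59.7, 67.4, 61.8 and 67.8 CPM in the controls F36, F37, M30 and M31 and 61.3, 60.0, 59.3 and 56.7 CPM in the stress brains F34, F35, M28 and M29. The mean was 64.2 ± 4.05 CPM in control and 59.3 ± 1.95 CPM in stress brains (SD, n = 4). The difference is about as large as the spread between control brains.

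The beta genes together had 166.7, 165.7, 149.0 and 157.2 CPM in the same order of control brains and 155.4, 160.4, 142.5 and 142.0 CPM in the same order of stress brains. The mean was 159.6 ± 8.28 CPM in control and 150.1 ± 9.26 CPM in stress brains. The stress mean minus the control mean was -8.31 CPM in females and -10.8 CPM in males, 2 brains against 2 in each.

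The gamma genes together had 250.6 to 272.5 CPM in control (mean 262.8 ± 9.52) and 248.1 to 261.9 CPM in stress brains (mean 257.3 ± 6.37). The gamma difference is smaller than the spread within either group. The stress mean minus the control mean was 0.0234 CPM in females and -10.96 CPM in males, 2 brains against 2 in each, and this difference between the sexes was not tested. The share of the family's level held by each cluster moved little, from 32.8% ± 1.502 in control to 32.1% ± 0.974 in stress brains for beta and from 54.0% ± 1.13 to 55.1% ± 0.825 for gamma.

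**Figure D4:**
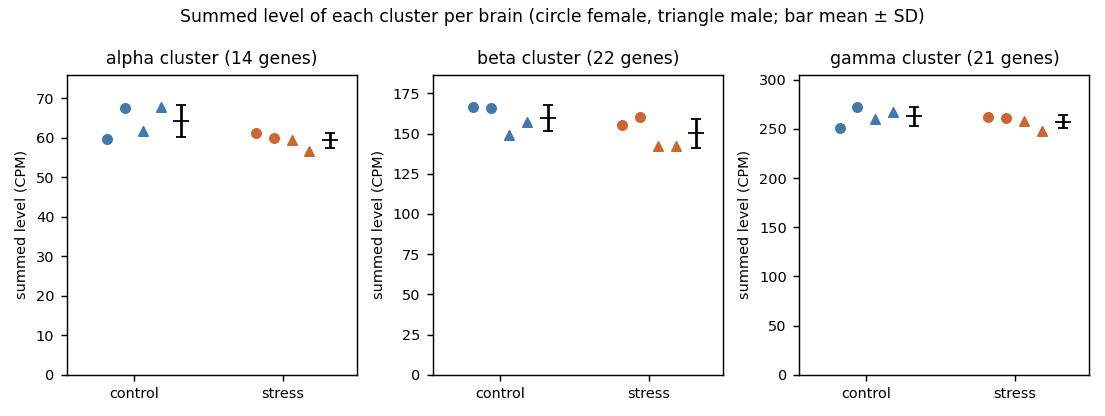
Summed CPM of each cluster per brain, with circles for females, triangles for males and a bar for mean ± SD of the 4 brains of a group. The groups overlap in all 3 clusters, and in the beta panel both males lie below both females within each group.

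The fitted levels of nearly all beta genes were higher in females than in males, but no beta gene passed the test. In the sex term of the same fit 0 members were called by edgeR or by DESeq2, beside 0.0896% of all genes by edgeR and 0.084% by DESeq2. The smallest adjusted p was 0.360, for *Pcdhb20*. At an unadjusted p under 0.05, 9 members differed by edgeR and 7 by DESeq2, beside 5.91% and 2.87% of all genes. Of the 9, 8 were beta genes higher in females and the other was *Pcdhga8*, higher in males. In the beta cluster 20 of 21 genes had a fitted difference, female minus male, above 0, with a median of 0.13 on the log2 scale, beside 50.6% of all genes above 0. The median was 0.03 for the alpha genes (7 of 12 above 0) and 0.02 for the gamma genes (12 of 20).

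The summed beta level was 162.0 ± 5.23 CPM over the 4 females and 147.7 ± 7.10 CPM over the 4 males (SD), with the highest male at 157.2 CPM above the lowest female at 155.4 CPM. All 4 females lay above all 4 males for *Pcdhb13* and *Pcdhb20*, and below them for *Pcdhga8*, which is 2 and 1 of 53 members beside 1.10% and 1.16% of all genes. *Pcdhb13* had 2.51, 2.47, 2.32 and 2.37 CPM in the females F36, F37, F34 and F35 and 2.03, 1.97, 1.78 and 1.55 CPM in the males M30, M31, M28 and M29. The difference was 0.40 on the log2 scale (SE 0.13, P-adj = 0.709). From *Pcdhb12* to *Pcdhb22* the median difference was 0.18 with 11 of 11 genes above 0, and from *Pcdhb2* to *Pcdhb11* it was 0.05 with 9 of 10. This is the division chosen after the stress values of the same brains were seen, and it was not tested.

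**Figure D5:**
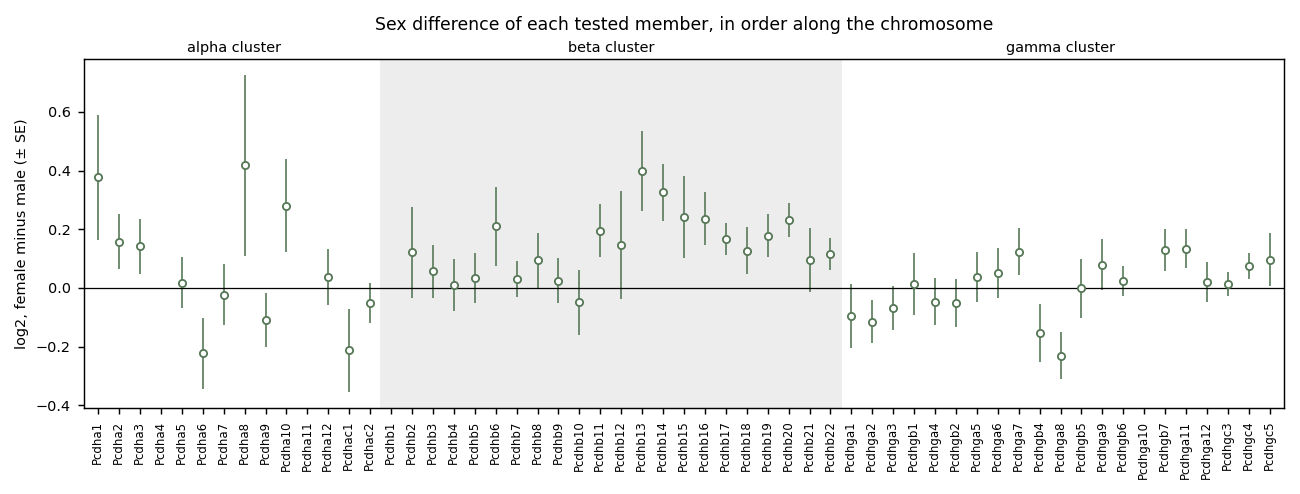
Fitted log2 difference, female minus male, with its SE for the 53 tested members, in order along the chromosome. Of the 21 beta genes 20 lie above 0, and no member passed the test at an adjusted p under 0.05.

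The effect of stress was not shown to differ between the sexes for any member. In the interaction term 0 members were called by edgeR or by DESeq2, beside 0.0056% and 0.0112% of all genes. At an unadjusted p under 0.05 there were 5 members by edgeR and 1 by DESeq2, beside 6.31% and 2.43% of all genes. The smallest adjusted p of a member was 0.587. In females alone the median Log2FC of the members was -0.03, with 30 of 53 below 0, and in males alone it was -0.11, with 39 of 53 below 0.

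Members varied somewhat more between brains than the typical gene. The median biological coefficient of variation, edgeR's estimate of the spread beyond counting error, was 5.69% over the members and 4.04% over all genes tested. It was lowest for *Pcdhgc3* at 3.19% and highest in the alpha cluster at 11.4%. The members also had fewer counts, a median of 189 per brain beside 488.5 over all genes tested, and the part of this in their spread was not tested.

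Protocadherins outside the clusters and their relatives were read from the same fit. Of 19 such genes 5 were lower and 3 higher in stress, and 11 did not pass, with a median Log2FC of -0.07. By DESeq2 2 were lower, *Pcdh8* and *Pcdh17*, and 1 was higher, *Fat3*. Over all genes tested by edgeR 7.27% were lower and 6.49% higher. In edgeR's fit, the lower genes were the delta protocadherins *Pcdh7* (-0.19, SE 0.04), *Pcdh8* (-0.13, SE 0.04), *Pcdh10* (-0.09, SE 0.03), *Pcdh17* (-0.17, SE 0.03) and *Pcdh20* (-0.24, SE 0.08), which are encoded by single scattered genes. The higher genes were the giant atypical cadherin *Fat3* (0.15, SE 0.03) and the planar polarity cadherins *Celsr1* (0.17, SE 0.05) and *Celsr2* (0.10, SE 0.03).

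The clustered promoters are known to depend on CTCF, cohesin and DNA methylation. Of 29 genes of these systems 4 were higher and 1 lower in stress, beside 6.49% and 7.27% of all genes. The other 24 did not pass, and the median Log2FC of the 29 was 0.04. Higher were the cohesin subunits *Rad21* (0.08, SE 0.03) and *Smc1a* (0.11, SE 0.03), the cohesin acetyltransferase *Esco2* (0.31, SE 0.06) and the maintenance methylation factor *Uhrf1* (0.24, SE 0.04). Lower was the de novo methyltransferase *Dnmt3a* (-0.11, SE 0.03), whereas *Dnmt3b*, which is known to methylate variable promoters in the embryo, had a Log2FC of -0.03 (SE 0.10, P-adj = 0.909). *Ctcf*, the insulator protein that joins promoters and enhancers here, had a Log2FC of 0.08 (SE 0.03, P-adj = 0.0519). *Esco2* and *Uhrf1* are also genes of dividing cells. At an unadjusted p under 0.05 by edgeR, 12 of the 29 were higher and 2 lower, beside 13.2% and 13.7% of all genes. The summed level of the 29 was 3845 to 3923 CPM in control and 3961 to 4005 CPM in stress brains, so the groups did not overlap.

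Of 24 genes for proteins that bind, cleave or signal with protocadherins, 2 were higher and 5 lower, beside 6.49% and 7.27% of all genes. The other 17 did not pass, and the median Log2FC of the 24 was -0.01. Higher were the gamma-secretase subunit *Ncstn* (0.19, SE 0.03) and the protein kinase C substrate *Marcks* (0.10, SE 0.02). Lower were the kinases *Ptk2b* (-0.47, SE 0.15), *Ret* (-0.28, SE 0.06) and *Prkca* (-0.26, SE 0.03), the WAVE complex subunit *Wasf1* (-0.11, SE 0.03) and the synaptic adhesion gene *Nlgn2* (-0.10, SE 0.03). All but *Ptk2b* were also called by DESeq2.

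Cell type markers moved beside these values. Of 9 neuron markers 5 were lower in stress and 0 higher, beside 7.27% and 6.49% of all genes, with a median Log2FC of -0.09. The 5 were *Rbfox3* (-0.13), *Snap25* (-0.13), *Stmn2* (-0.09), *Syt1* (-0.11) and *Nefm* (-0.09), beside -0.19, -0.19 and -0.13 in the members called. DESeq2 called 3 of these 5 markers, without *Snap25* and *Nefm*. *Tubb3* (-0.02), *Map2* (-0.04), *Nefl* (-0.07) and *Dcx* (0.06) did not pass by either tool. The summed level of the 9 was 6746 to 6995 CPM in control and 6600 to 6920 CPM in stress brains, so the groups overlapped. Of 9 markers of radial glia and dividing progenitors 6 were higher and 0 lower, beside 6.49% and 7.27% of all genes. The 6 were *Sox2* (0.12), *Pax6* (0.14), *Vim* (0.12), *Nes* (0.14), *Mki67* (0.21) and *Top2a* (0.24), and DESeq2 called all of them but *Nes*. *Hes5* (-0.10), *Fabp7* (-0.02) and *Slc1a3* (-0.04) did not pass by either tool. The summed level of the 9 was 1825 to 1946 CPM in control and 1898 to 2064 CPM in stress brains. The part of these cell markers in the values of the clustered protocadherins was not tested.

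The markers of other cells in or around the brain gave smaller sums. Of 5 serotonergic genes 1 was lower, the serotonin transporter *Slc6a4* (-0.49, SE 0.14), which DESeq2 did not call (P-adj = 0.240). The summed level was 62.4 to 73.0 CPM in control and 63.5 to 68.4 CPM in stress brains. *Slc18a2* made up most of it, with a mean of 46.4 CPM in control and 47.0 CPM in stress brains. *Tph2* (-0.10), *Fev* (-0.29), *Ddc* (0.09) and *Slc18a2* (0.02) did not pass by either tool. Of 5 Cajal-Retzius genes 1 was higher (0 by DESeq2) and 2 lower, with 367.4 to 396.5 and 367.1 to 377.2 CPM. Of 5 choroid plexus genes 2 were higher (1 by DESeq2, without *Ttr*), with 36.9 to 47.1 and 46.6 to 76.1 CPM. Most of this sum was *Otx2*, with a mean of 38.1 CPM in control and 43.2 CPM in stress brains, and *Ttr* ran from 0.656 to 29.9 CPM in stress brains. *Clic6* (0.30), *Folr1* (-0.20) and *Kl* (-0.37) did not pass. Of the 4 tested of 5 meninges and mesenchyme genes 3 were higher, with 12.4 to 25.7 and 17.0 to 60.0 CPM, and DESeq2 called 0 of them. Endothelium had 2 of 4 genes lower (1 by DESeq2), with 99.0 to 106.6 and 87.7 to 94.8 CPM, and the oligodendrocyte lineage 2 of 4 lower, with 103.5 to 115.3 and 91.0 to 97.1 CPM. Of 5 blood genes 1 was lower, with 358.2 to 404.8 and 360.6 to 375.1 CPM. Microglia had 0 of 4 genes called by either tool and 0 at an unadjusted p under 0.05 by edgeR, with 24.7 to 28.2 and 24.1 to 27.1 CPM. No marker was at 0 in every brain.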

How the data were processed

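Per the labels and the study's methods, polyadenylated RNA of each brain was sequenced in paired reads. The authors trimmed the reads, used TopHat2 2.1.1 for alignment to mm10, and featureCounts 1.6.3 to count the pairs on the exons of GENCODE vM20 genes. The deposited values are raw counts per gene. The stated options set nothing for strand, so reads of a gene and its antisense partner cannot be told apart. Pairs that fit several genes alike, or that fall at several places, are left out by default. Batch is not given for these 8 brains.

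Gene symbols came from GENCODE vM21, matched for 53861 identifiers with version and 862 without, and 29 had no match. One member that vM21 calls *Pcdha11*, as it also calls its neighbour, lies where RefSeq has *Pcdha10* and is named so here. Own exon bases were computed from the exon coordinates of the count tables. Within groups the libraries differed by more than counting noise, so none was counted as a repeat.

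Genes were kept by edgeR's filterByExpr (minimum count 10, by group), scaled by TMM and tested by quasi-likelihood (glmQLFit, glmQLFTest) with sex and condition in the model (edgeR 4.0.16, limma 3.58.1, R 4.3.3), with Benjamini-Hochberg adjustment and a threshold of 0.05. The SE is the size of the Log2FC divided by the root of the F value. Totals of 25320109 to 29105710 counts set the precision, and floors of 3 counts cover counting error only. Scripts were tested on simulated data. Alternatives were DESeq2 1.42.0, its median-of-ratios scaling, library totals only, no filter, no sex covariate, each sex alone and each brain left out. The members, gene lists and tests were chosen with earlier results of these data known. Named were the members called, the C-type genes and any member whose groups did not overlap. Members with the most and fewest counts or the largest and smallest Log2FC per group were also named. So were called genes of the lists of relatives, promoter regulators and partners, and the neuron and progenitor markers. Of the markers of other cells, not all called genes were named. *Pcdhb13* and *Pcdhga8* were named after their values were seen. Protein relatedness and promoters of the members were not analysed here.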

Additional observations from a re-analysis of the deposited data

Results flagged for a closer look

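Of 112 groups of 4 brains tested (53 members and 3 cluster sums in each group), 5 had 1 brain far from the other 3, its gap to the nearest exceeding Dixon's critical share of the range, and chance gives about 1 in 20. *Pcdha2* had 7.93 CPM in stress F34 beside 6.27 to 6.48 in the other stress brains. *Pcdhga7* had 11.045 CPM in stress F34 beside 9.40 to 9.55. *Pcdhgb7* had 13.0 CPM in stress F35 beside 10.3 to 10.6. *Pcdhb5* had 6.38 CPM in control F37 beside 6.81 to 6.86 in the other controls. *Pcdhb22* had 14.6 CPM in stress M28 beside 16.3 to 16.5, and without M28 its Log2FC was -0.16 with P-adj = 0.0923 by edgeR.

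Of 15 genes that are no members but share exon bases with members, 5 had more than 3 counts in every brain. The pseudogene *Pcdhgb8* had 73 to 89 counts, *Gm10544* 110 to 160, *BC037039*, antisense to *Pcdhgc3*, 50 to 76, *Gm26672* 48 to 77 and *Gm10545* 5 to 19. None of these 5 was called between stress and control by edgeR.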

How the results depend on the processing

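No direction changed for the 3 members called lower, but their calls did. The number of members called lower, whichever they were, was 3. It became 0 with DESeq2, 0 without the sex covariate, 0 in females alone and 1 in males alone. It was 5 without a filter on low counts and 1 to 3 when a brain was left out. It stayed at 3 with median-of-ratios scaling and library totals only. Over all genes the 1160 called higher became 748 with DESeq2, 295 in females alone and 664 in males alone, and the 1298 called lower became 407 in females alone. Leaving out a brain gave 736 to 1057 higher and 854 to 1308 lower genes, the lowest without stress M29. The genes called for the interaction were 1 by edgeR, 2 by DESeq2 and 0 to 6 with a brain left out. Of the other lists, relatives called higher became 1 and lower 2 with DESeq2, and neuron markers called lower became 3. With a brain left out the ranges were 1 to 3 and 2 to 6 for the relatives, 2 to 7 and 0 to 1 for the promoter regulators, 3 to 5 for partners called lower, 1 to 6 for neuron markers called lower and 0 to 1 for progenitor markers called lower. Differences that lay near 0 changed sign: *Pcdhgb6* was -0.047 and *Pcdhgc3* -0.019 in males alone, *Pcdhga12* 0.025 and *Pcdhgc5* 0.047 in females alone, and with a brain left out *Pcdhgb6* ran from -0.026 to 0.055 and *Pcdhgb4* from -0.083 to 0.050. The summed cluster levels moved by less than the spread between brains with other scaling, without the members that failed the filter and with a brain left out, although the gamma difference, -5.47 CPM, was -2.21 CPM without control F37 and -2.41 CPM without stress M29, and 0.0234 CPM in females and -10.96 CPM in males taken alone. No paired analysis was possible because the groups share no replicate numbers. The causes were not tested.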
